A study of Homo sapiens with 15 samples.

Results

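The genes described here are 9 genes of fatty acid handling, PLIN2, PDK4, ANGPTL4, CPT1A, ACSL1, FABP4, ACADVL, PPARG and PPARD, out of 60286 genes in the count table. PLIN2 and PDK4 were picked because their levels differed between the isolation methods under *S. aureus* BEVs (bacterial extracellular vesicles), and the other 7 are receptors and genes of the same pathway. RNA-seq was done on THP-1 cells, a wild-type human monocytic leukaemia line, in 15 libraries, with 3 in each of 5 groups. Control cells were given PBS (NC). BEVs of *E. coli* at 1 μg/mL were prepared by ultracentrifugation (UC, group EUC) or with epsilon-poly-L-lysine (PL, group EPL), and BEVs of *S. aureus* at 10 μg/mL were prepared in the same ways (SUC and SPL). The *E. coli* strain was DH5a, a laboratory strain, and the *S. aureus* came from the CICC collection. Both bacteria were grown in LB broth, and the BEV doses are protein concentrations. The incubation lasted 6 hours by the methods of the study, whereas the labels give day 0. Species and dose changed together and cannot be told apart.

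Peroxisome proliferator-activated receptors (PPARs) are nuclear receptors that bind fatty acids and their derivatives, pair with retinoid X receptors (RXRs) and switch on genes that take up, store and burn fatty acids. In macrophages PPARG is known for its part in lipid uptake and in restraining inflammatory genes, and PPARD responds to fatty acids released from lipoproteins. PLIN2 coats lipid droplets, PDK4 turns off pyruvate dehydrogenase so that cells burn fat in place of glucose, and both are widely used as readouts of PPAR activity. Some of these genes also respond to other signals, among them hypoxia, glucocorticoids and FOXO factors.

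Of the 9 genes, 8 passed the filter on low counts and were among the 17198 genes tested, while FABP4 did not pass. The libraries held 14399421 to 16637345 gene reads (median 15831655). Levels are in CPM, reads scaled to the size of the TMM-normalized library, and the 13 reads of PDK4 in NC replicate 1 stood for 0.832 CPM. Of 14 monocyte markers, 13 were above 1 CPM on average, and CD68 was the exception with 18 reads over all libraries. The summed level of these markers was 1790 to 1840 CPM in NC and 2110 to 2760 CPM in the stimulated groups. This sum followed SPI1, with a mean of 471 CPM in NC and 960 to 1200 CPM in the stimulated groups. CEBPA went the other way, from 419 CPM to between 282 and 322 CPM. The median log2 fold change of the tested markers was -0.04 with *E. coli* BEVs and -0.10 with *S. aureus* BEVs. SPI1 rose and MPO fell as DEGs with either species. The part of this in the results was not tested. Among 20 markers of other cell types, 6 had no read in any library (among them CD3D, ADIPOQ, LEP, HBB and HBA1), and the summed level of the 20 ranged from 825 to 1310 CPM, mostly from CFD and PECAM1. This sum was 825 to 1170 CPM in SUC and 871 to 927 CPM in SPL. Of these 20, COL1A1 was a DEG, higher with either species. Of the adipocyte markers, ADIPOQ and LEP were thus at 0 in every group, whereas CFD had group means of 638 to 814 CPM. In bulk RNA, a change in the share of cells that express a gene and a change in RNA per cell cannot be told apart. Wells were treated in triplicate for each group by the methods of the study, and whether these came from separate passages or days is not stated, so p-values measure the spread between these libraries.

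A gene was counted as a DEG when its adjusted p was at most 0.01 (quasi-likelihood test of edgeR, adjusted over the 17198 genes by Benjamini-Hochberg) and its change at least 2-fold. Against NC, 3 of the 8 tested members were DEGs in EUC, where 15.2% of all tested genes were, and 2 in EPL, where 14.5% were. In SUC 2 members were DEGs beside 9.88% of all genes, and in SPL 5 were beside 11.5%. PLIN2 in SUC, and PLIN2 and PDK4 in SPL, are part of these counts and had been picked on those libraries. By the adjusted p alone, with no fold limit, 5 members were called in EUC (30.5% of all genes), 5 in EPL (29.2%), 4 in SUC (21.5%) and 6 in SPL (23.9%). Over the mean of both *E. coli* groups and of both *S. aureus* groups these were 5 (34.9%) and 5 (27.4%). Without PLIN2 and PDK4, which were picked on the *S. aureus* libraries, 3 of 6 were called by the adjusted p alone in SUC, 4 in SPL and 3 over both. The 4 comparisons share the NC libraries. ACSL1 was higher in all 4 groups, PPARD in 3, and PPARG was lower in 2. Within *E. coli* BEVs, 0 of the 8 were DEGs between the isolation methods with edgeR.

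**Figure D1:**
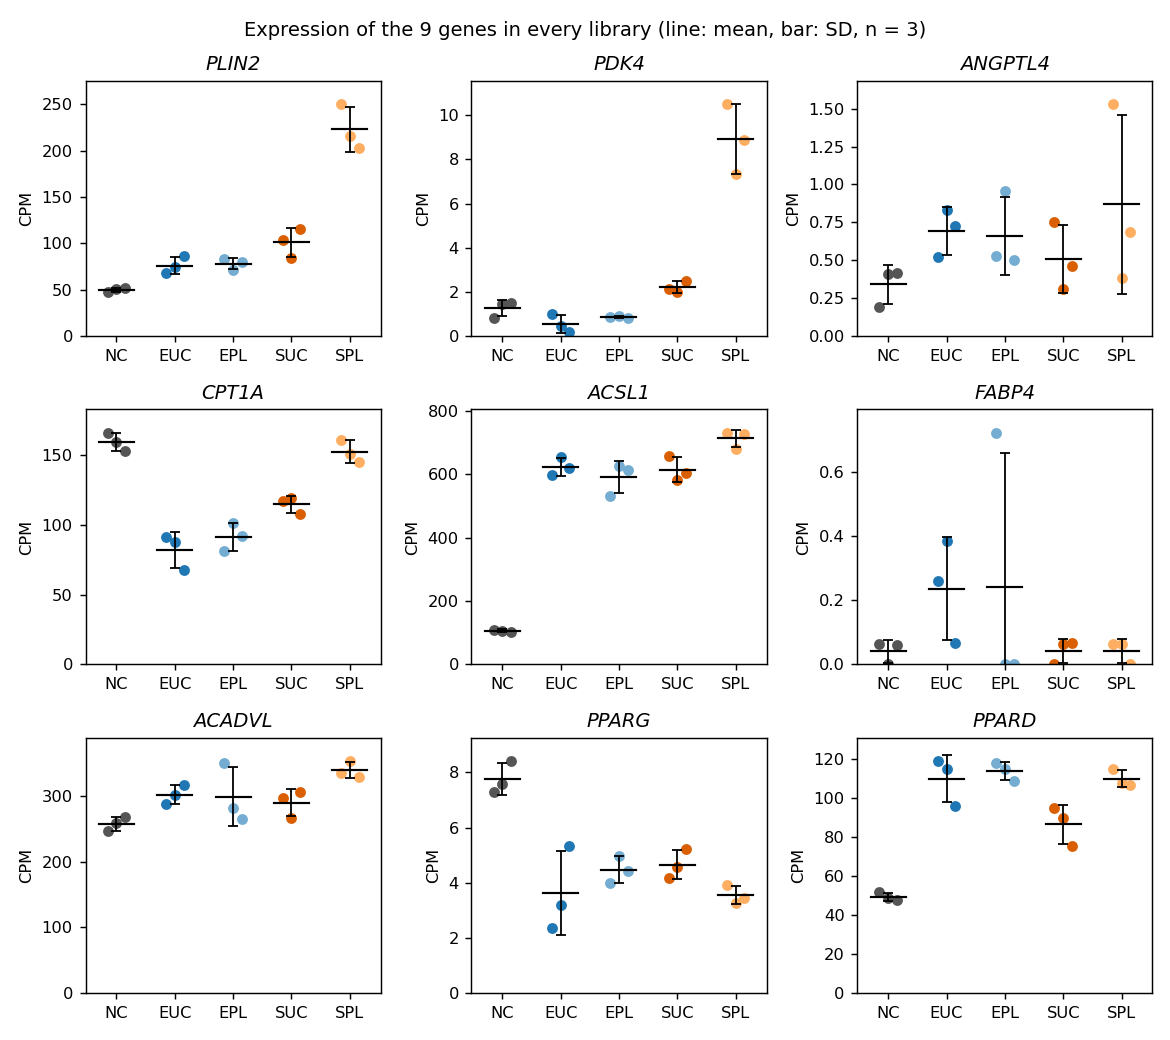
Expression of the 9 genes in CPM (vertical axis, linear, from 0) in each of the 15 libraries, by group (horizontal axis). Points are libraries, lines are means and bars are SD (n = 3); PLIN2 lay between 203 and 250 CPM in SPL and at or below 115 CPM in every other library, while ACSL1 was at or below 110 CPM in NC and at or above 533 CPM in every stimulated library.

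The receptors moved in opposite directions. PPARD (ENSG00000112033, chromosome 6, 35342558 to 35428191 on hg38), the most widely expressed PPAR, was at 51.6, 48.8 and 47.5 CPM in the NC libraries. It was at 119, 115 and 96.2 CPM in EUC and at 118, 115 and 109 CPM in EPL. In SUC it was at 94.8, 89.7 and 75.5 CPM, and in SPL at 115, 108 and 107 CPM. Every stimulated library was above every NC library, and the SUC libraries were the lowest of the stimulated ones. The rise was 2.24-fold in EUC (log2 fold change 1.16, standard error 0.10, adjusted p = 3.9e-08), 2.31-fold in EPL (1.21, standard error 0.10, adjusted p = 2.46e-08) and 2.23-fold in SPL (1.15, standard error 0.10, adjusted p = 5.78e-08). In SUC it was 1.76-fold, which passed the adjusted p (4.88e-06 from edgeR) and not the fold threshold.

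PPARG (ENSG00000132170, chromosome 3, 12287368 to 12434356), the receptor best known from fat cells and macrophages, was at 7.29, 7.59 and 8.41 CPM in NC. EUC libraries had 2.34, 3.20 and 5.32 CPM and EPL libraries 4.0, 4.97 and 4.43 CPM. SUC libraries had 4.17, 4.56 and 5.21 CPM and SPL libraries 3.90, 3.28 and 3.45 CPM. All 12 stimulated libraries lay below all 3 NC libraries. The fall was a DEG in EUC (log2 fold change -1.10, standard error 0.22, adjusted p = 0.000574 from edgeR) and in SPL (-1.13, standard error 0.22, adjusted p = 0.000585). In EPL it was -0.80 (adjusted p = 0.00638 from edgeR), which passed the adjusted p and not the fold threshold. In SUC it was -0.74 (adjusted p = 0.0132), which passed neither. The EUC libraries were spread widely, and without EUC replicate 1 the log2 fold change was -0.86 and no longer a DEG. It was also no DEG when only EUC and NC entered the fit (adjusted p = 0.0111).

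Of the partners, PPARA, the receptor of the fasting liver, was at 20.9 CPM in NC and between 14.3 and 16.8 CPM in the stimulated groups, and its log2 fold changes of -0.48 over the *E. coli* groups and -0.42 over the *S. aureus* groups did not pass the test (adjusted p = 0.0687 and 0.123 from edgeR). RXRA, at 454 CPM in NC, had log2 fold changes of 0.06 and -0.10 (adjusted p = 0.424 and 0.239), and RXRB had 0.09 and 0.11 (adjusted p = 0.412 and 0.312). RXRG had 1 read in all and was not tested. With edgeR, 0 of the 14 other receptors and cofactors tested were DEGs over the *E. coli* groups, where 15.7% of all tested genes were. With DESeq2 0 were DEGs too. An unadjusted p of at most 0.05 (edgeR) was found there for 6 of the 14, beside 8965 of all 17198 tested genes. Over the *S. aureus* groups 1 was a DEG with edgeR, NCOA2, a coactivator of nuclear receptors, at a log2 value of 1.05 (adjusted p = 1e-05, standard error 0.14).

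PLIN2 (ENSG00000147872, chromosome 9, 19108375 to 19149290) encodes perilipin 2, the lipid droplet coat of cells other than fat cells. It was at 47.3, 50.3 and 51.4 CPM in NC. With *E. coli* BEVs it was at 67.6, 74 and 85.9 CPM in EUC and at 83.5, 71.2 and 79.8 CPM in EPL, above every NC library and overlapping each other. These libraries had no part in its choice, and there the rise was 1.53-fold in EUC (log2 fold change 0.61, standard error 0.12, adjusted p = 0.000517) and 1.57-fold in EPL (0.65, standard error 0.12, adjusted p = 0.000286, both from edgeR), under the fold threshold. With *S. aureus* BEVs it was at 104, 84.4 and 115 CPM in SUC and at 250, 216 and 203 CPM in SPL. The SPL libraries stood above all others, with fitted means 2.03-fold (SUC) and 4.49-fold (SPL) over NC and 2.21-fold in SPL over SUC. These are descriptions, since PLIN2 was picked on these libraries. The 2.03-fold rise in SUC lay at the fold threshold, with a log2 value of 1.02 that was 0.99 without NC replicate 1 and 0.92 without SUC replicate 3.

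PDK4 (ENSG00000004799, chromosome 7, 95583499 to 95596516), pyruvate dehydrogenase kinase 4, was scarce. It had 13, 25 and 25 reads in NC, or 0.832, 1.47 and 1.49 CPM. It had 15, 7 and 3 reads in EUC and 13, 14 and 13 reads in EPL, or 0.197 to 0.976 and 0.812 to 0.892 CPM. Both *E. coli* groups overlapped NC, with log2 fold changes of -1.22 in EUC (standard error 0.40, adjusted p = 0.0199) and -0.57 in EPL (standard error 0.36, adjusted p = 0.235, both from edgeR). The value in EUC was past both thresholds with DESeq2 (adjusted p = 0.00876) and without EUC replicate 1, where it was -1.94. In SUC PDK4 had 31, 32 and 38 reads (2.12, 2.0 and 2.51 CPM) and in SPL 164, 114 and 129 reads (10.5, 7.34 and 8.89 CPM). Every SUC library was above every NC library and every SPL library above every SUC library, at 1.73-fold and 6.97-fold over NC and 4.02-fold in SPL over SUC by the fitted means, again as a description.

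The promoters of PLIN2 and PDK4 are shown because these genes were highest in the same group. Each stretch is taken from RefSeq on GRCh38.p14, the sequence of hg38, and runs from 250 bases before to 50 bases after the annotated start of the transcript, which lies on the minus strand. PLIN2 is chr9:19127443-19127742 and PDK4 is chr7:95596467-95596766. Both strands were searched for AGGTCA, the element bound by many nuclear receptors, for a pair of AGGTCA on the same strand with 1 base N between them, the direct repeat bound by PPAR and RXR (each match of which also matches AGGTCA), for ACGTG, the core of the hypoxia response element, and for TGTTTAC, a forkhead factor motif. Matches are in capitals.
PLIN2: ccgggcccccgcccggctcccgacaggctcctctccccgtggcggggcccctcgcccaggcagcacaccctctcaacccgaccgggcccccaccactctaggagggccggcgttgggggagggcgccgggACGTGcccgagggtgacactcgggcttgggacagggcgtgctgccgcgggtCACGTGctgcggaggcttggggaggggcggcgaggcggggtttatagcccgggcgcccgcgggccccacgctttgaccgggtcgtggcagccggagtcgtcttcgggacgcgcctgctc
PDK4: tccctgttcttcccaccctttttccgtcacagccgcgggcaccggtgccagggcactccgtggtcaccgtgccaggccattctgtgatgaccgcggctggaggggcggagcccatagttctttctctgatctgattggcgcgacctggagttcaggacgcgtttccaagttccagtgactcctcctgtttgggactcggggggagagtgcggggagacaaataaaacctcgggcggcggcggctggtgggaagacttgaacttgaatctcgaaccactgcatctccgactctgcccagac
The capitals in PLIN2 are all matches of ACGTG, once at position -120 from the start and once on each strand, overlapping, at -68 and -69. None of the 4 motifs was found in the PDK4 stretch. ACGTG was found in 21.4% of the 35116 promoter stretches of this length in the table, AGGTCA in 13.8%, TGTTTAC in 3.42% and the direct repeat in 0.0228%. The PLIN2 stretch has 76.7% G and C and the PDK4 stretch 60.7%. A match of letters is no evidence of binding, and elements outside the stretch were not searched.

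ANGPTL4 (ENSG00000167772, chromosome 19, 8363289 to 8374370), a secreted inhibitor of lipoprotein lipase and a common PPAR target, had few reads. It had 3, 7 and 7 reads in the NC libraries. EUC had 8, 13 and 11 reads, EPL 8, 15 and 8, SUC 11, 5 and 7 and SPL 24, 6 and 10. The *E. coli* groups lay above NC, the *S. aureus* groups overlapped it, and SPL replicate 1 was the highest library. The fitted changes against NC lay between 1.46-fold in SUC and 2.51-fold in SPL, and none passed the test (adjusted p from edgeR of 0.166 for EUC, 0.205 for EPL, 0.523 for SUC and 0.068 for SPL). The value in SPL rested on replicate 1, and without it the log2 fold change was 0.64 in place of 1.33, and 0.09 in place of 0.78 over SUC. In EUC its 95% confidence interval ran from 0.887 to 4.49-fold.

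FABP4 (ENSG00000170323, chromosome 8, 81478419 to 81483236), a fatty acid carrier of fat cells and macrophages, had 2 reads over the 3 NC libraries. EUC and EPL had 11 reads each, and SUC and SPL 2 each. The 11 reads in EPL came from a single library, and EUC had 4, 6 and 1. It was not tested, and no fold is given.

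ACSL1 (ENSG00000151726, chromosome 4, 184755595 to 184826818), which activates long-chain fatty acids by joining them to coenzyme A and is induced in inflammatory macrophages, rose most of the 8 tested members in EUC, EPL and SUC. It was at 110, 107 and 101 CPM in NC, at 598, 655 and 620 CPM in EUC and at 533, 626 and 613 CPM in EPL. In SUC it was at 659, 583 and 604 CPM and in SPL at 732, 682 and 727 CPM. No stimulated library came near NC, and the 4 groups differed little beside that distance. The rise was 5.90-fold in EUC (adjusted p = 1.86e-13), 5.58-fold in EPL (adjusted p = 2.9e-13), 5.82-fold in SUC (adjusted p = 3.38e-13) and 6.74-fold in SPL (adjusted p = 1.18e-13, edgeR's quasi-likelihood test), with a standard error of 0.09 on the log2 scale in each. Exons of ACSL1 overlap antisense lncRNA exons by 212 and 81 bases, whose reads cannot be told apart because the strand setting of the counting is not given.

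CPT1A (ENSG00000110090, chromosome 11, 68754620 to 68844410), which carries out the rate-limiting step of fatty acid entry into mitochondria, fell with *E. coli* BEVs. It was at 166, 159 and 153 CPM in NC, at 91.1, 88.0 and 67.3 CPM in EUC and at 81.1, 101 and 91.7 CPM in EPL. In SUC it was at 117, 119 and 108 CPM and in SPL at 161, 151 and 145 CPM. EUC, EPL and SUC lay below NC without overlap, whereas SPL overlapped NC. The log2 fold changes were -0.96 in EUC (adjusted p = 1.29e-06), -0.81 in EPL (adjusted p = 9.66e-06) and -0.47 in SUC (adjusted p = 0.00225), which passed the adjusted p and not the 2-fold threshold, and -0.07 in SPL (adjusted p = 0.679, all from edgeR, with a standard error of 0.11). The interval in SPL ran from -0.29 to 0.16. Without EUC replicate 1 or 2, the value in EUC became -1.04 and -1.01, past the fold threshold.

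ACADVL (ENSG00000072778, chromosome 17, 7217125 to 7225266), the dehydrogenase that starts the breakdown of long fatty acids in mitochondria, differed little. NC libraries had 247 to 268 CPM, EUC 288 to 317, EPL 265 to 351, SUC 267 to 307 and SPL 330 to 354 CPM. The SPL libraries were above NC, at 1.32-fold (adjusted p = 0.00344 from edgeR), and the other groups at 1.13 to 1.17-fold did not pass the test (adjusted p = 0.0622 in EUC, 0.0826 in EPL and 0.189 in SUC). Its exons share 49 bases with DLG4 on the other strand.

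**Figure D2:**
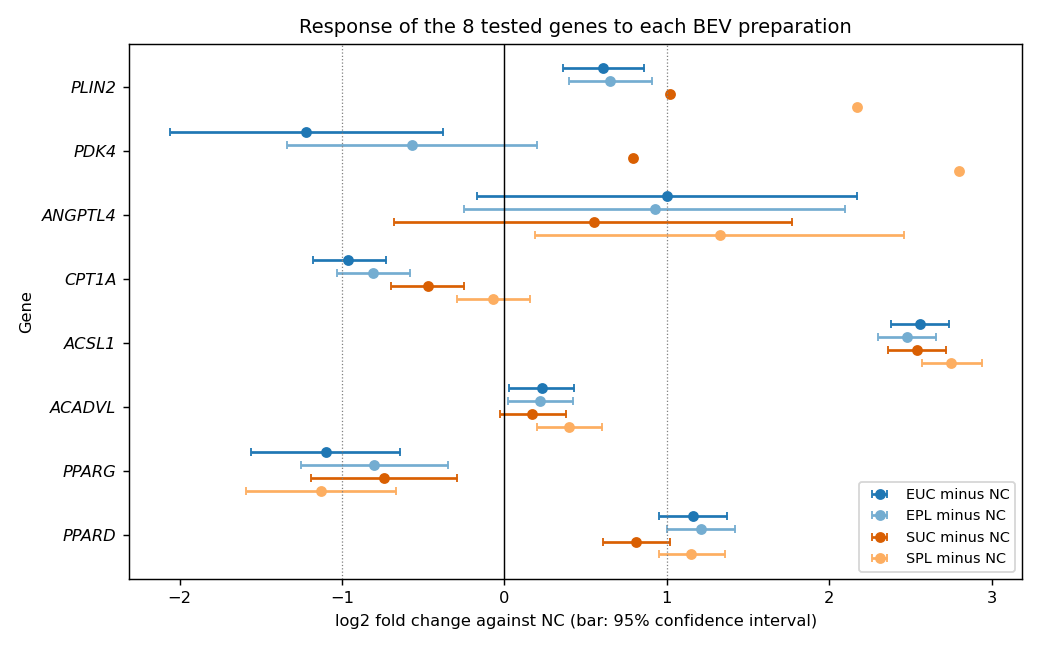
Log2 fold change against NC (horizontal axis) of the 8 tested genes (vertical axis) for each BEV group, from the edgeR fit. Bars are 95% confidence intervals and dotted lines mark 2-fold. Points without bars are PLIN2 and PDK4 in SUC and SPL, the libraries on which they were picked. ACSL1 lay between 2.48 and 2.75 in all groups, and CPT1A ran from -0.96 in EUC to -0.07 in SPL.

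Per kilobase of exon, the order of the genes changed with stimulation. In NC ACADVL was highest (53.5 ± 2.14 CPM per kilobase, mean ± SD, n = 3), followed by CPT1A (24.2 ± 0.97), ACSL1 (16.3 ± 0.732), PPARD (11.1 ± 0.473) and PLIN2 (9.92 ± 0.43), with no overlap between neighbours. PPARG (0.648 ± 0.0481), PDK4 (0.278 ± 0.0824), ANGPTL4 (0.138 ± 0.0519) and FABP4 (0.0301 ± 0.0261) were far lower. In all 4 stimulated groups ACSL1 was first and ACADVL second. In SPL ACSL1 reached 110 ± 4.22 CPM per kilobase and PLIN2 followed ACADVL with 44.5 ± 4.83, ahead of PPARD (24.6 ± 0.95) and CPT1A (23.2 ± 1.25), which overlapped. In EUC and EPL, PPARD came next, and PLIN2 and CPT1A after it overlapped. In SUC PLIN2 (20.2 ± 3.06), PPARD (19.4 ± 2.25) and CPT1A (17.5 ± 0.884) followed ACADVL, each overlapping the next. PDK4 was above PPARG in SUC (0.486 ± 0.0586 against 0.388 ± 0.0442) and SPL (1.96 ± 0.345 against 0.296 ± 0.0265), and below it in NC and EPL, without overlap. The order depends on the lengths used, which join all annotated exons of a gene, 11981 bases for PPARG and 4544 for PDK4. In CPM, PPARG was above PDK4 in SUC (4.65 against 2.21) and below it in SPL (3.54 against 8.90). By CPM per kilobase, PDK4 had the lowest mean of all 9 genes in EUC, at 0.119 ± 0.0874, where it overlapped FABP4 (0.173 ± 0.117).

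The comparison of EPL with EUC asked whether the isolation method mattered for *E. coli* BEVs, in libraries that the choice of PLIN2 and PDK4 did not use. Of the 8 members 0 were DEGs with edgeR and 0 with DESeq2, 0 had an unadjusted p of at most 0.05, and all 8 overlapped between the groups, beside 3.11% of all tested genes with EPL above EUC in every library and 3.26% with EPL below. Of all tested genes 0% were DEGs, and 604 had an unadjusted p of at most 0.05. The differences ran from -0.08 to 0.65 on the log2 scale, with adjusted p-values of at least 0.947. For PLIN2 the difference was 1.03-fold with a 95% confidence interval from 0.867 to 1.23-fold. For PDK4 it was 1.57-fold with an interval from 0.841 to 2.92-fold. The wide intervals of PDK4, PPARG (0.884 to 1.72-fold) and ANGPTL4 (0.454 to 2.01-fold) leave room for differences that these libraries could not show.

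For *S. aureus* BEVs, SPL against SUC is the comparison that PLIN2 and PDK4 were picked on, so it is given without a test. Of the 6 tested members that were not picked on it, 0 were past both thresholds with edgeR and 0 with DESeq2. PLIN2 was past them, beside 0.00581% of all tested genes, and nothing is read from this because that contrast chose it. PLIN2 (2.21-fold) and PDK4 (4.02-fold) were followed by ANGPTL4 (1.72-fold, groups overlapping), CPT1A (1.33-fold), PPARD (1.27-fold), ACADVL (1.17-fold) and ACSL1 (1.16-fold), and PPARG was at 0.763-fold. Among all 17198 genes PDK4 ranked 8th by the size of the difference and PLIN2 163rd. All SPL libraries were above all SUC libraries in PLIN2 and PDK4, as their choice would have it, and in 4 of the other 6 (CPT1A, PPARD, ACADVL and ACSL1), beside 6.86% of all tested genes. In PPARG they were below, beside 5.95%. The other 6 members were also chosen with earlier results of these data known, so nothing is read from these shares. Whether the effect of the method differed between the species was not tested, because that difference contains the contrast that picked the genes.

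**Figure D3:**
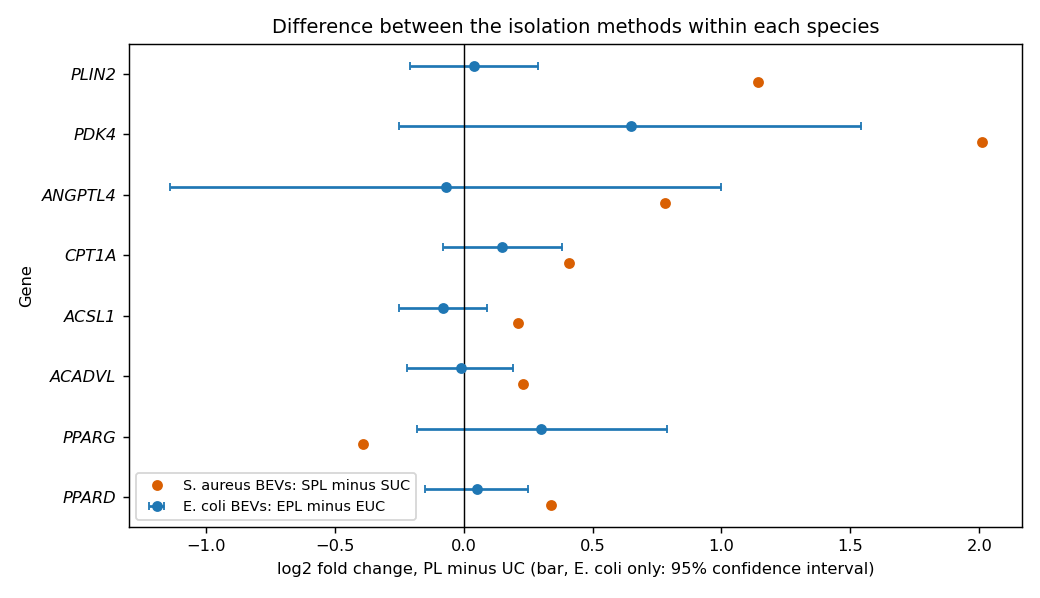
Log2 fold change between the isolation methods, PL minus UC (horizontal axis), for the 8 tested genes (vertical axis), within *E. coli* BEVs (blue, with 95% confidence intervals) and within *S. aureus* BEVs (orange, without intervals because PLIN2 and PDK4 were picked on these values). All *E. coli* intervals include 0, and the *S. aureus* values reach 1.14 for PLIN2 and 2.01 for PDK4.

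Between the species, EUC and EPL on average were set against SUC and SPL on average, at 1 and 10 μg/mL. Of the 6 tested members that had not been picked on these libraries, 0 were DEGs with edgeR and 0 with DESeq2, where 0.686% of all tested genes were with edgeR. 3 of the 6 had an unadjusted p of at most 0.05 (edgeR), beside 2920 of all 17198 tested genes. 1 of the 6 had an adjusted p of at most 0.01, beside 3.87% of all tested genes. This was CPT1A, at 86.6 CPM under *E. coli* BEVs and 133 CPM under *S. aureus* BEVs, with a log2 difference of -0.61 (standard error 0.08, adjusted p = 5.58e-05) and all 6 *E. coli* libraries below all 6 *S. aureus* libraries. PPARD had a log2 difference of 0.20 (adjusted p = 0.0977), ACSL1 of -0.13 (adjusted p = 0.263), ACADVL of -0.06 (adjusted p = 0.754), ANGPTL4 of 0.03 (adjusted p = 0.986) and PPARG of -0.01 (adjusted p = 0.985, interval from -0.35 to 0.33). PLIN2 was at 77 and 162 CPM and PDK4 at 0.696 and 5.56 CPM, the latter without overlap, as a description.

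Other genes of the pathway were read from lists, leaving out the 9 members, over the mean of both *E. coli* groups and the mean of both *S. aureus* groups against NC. Of all tested genes 9.82% rose and 5.88% fell as DEGs with *E. coli* BEVs, and 7.67% and 3.84% with *S. aureus* BEVs, and the median log2 fold change of all genes was 0.00 in both. Among 15 tested genes of lipid droplet coat and turnover, 3 rose and 0 fell with either species, MGLL, G0S2 and PLIN5. MGLL, the lipase that splits monoglycerides, was at 2.67 ± 0.646 CPM in NC (mean ± SD, n = 3), while EUC had 131 ± 19.8, EPL 133 ± 3.75, SUC 70.4 ± 13.3 and SPL 99.0 ± 5.29 CPM. Its log2 fold changes were 5.63 and 4.97 (adjusted p = 4.62e-14 and 2.83e-13 from edgeR). G0S2, an inhibitor of the triglyceride lipase PNPLA2, rose by log2 fold changes of 4.40 and 3.65 (adjusted p = 1.1e-10 and 1.48e-09). Of the PLIN2 paralogs, PLIN5 rose from 0.482 CPM (log2 fold changes 1.79 and 1.46, adjusted p = 0.000186 and 0.00179), and PLIN3, which coats early droplets, had log2 fold changes of -0.33 and -0.37 (adjusted p = 0.0008 and 0.000305), under the fold threshold. PLIN4 had 0.32 and 0.50 (adjusted p = 0.375 and 0.179), and PLIN1, the coat of fat cells, had 21 reads in all. The list medians were -0.02 and -0.01.

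Among 17 genes of fatty acid uptake, binding and activation, 2 rose and 2 fell with *E. coli* BEVs, and 1 rose and 2 fell with *S. aureus* BEVs, with medians of 0.02 in both. CD36, a scavenger receptor that takes up fatty acids and oxidized lipoproteins, rose from 47.4 ± 1.41 CPM to between 146 and 162 CPM in the 4 groups (log2 fold changes 1.70 and 1.73, adjusted p = 9.98e-12 and 1.15e-11 from edgeR). VLDLR, a lipoprotein receptor, fell from 119 ± 3.37 CPM to between 39.1 and 48.5 CPM (-1.60 and -1.40, adjusted p = 2.2e-11 and 1.79e-10), and SLC27A2, a fatty acid transport protein, fell from 10.1 CPM (-1.55 and -1.21, adjusted p = 5.89e-07 and 1.22e-05). Of the ACSL1 paralogs, ACSL5 had log2 fold changes of 1.17 and 0.87 (adjusted p = 3.06e-10 and 1.89e-08), of which the first was past the fold threshold. ACSL4 had 0.55 and 0.49 (adjusted p = 5.24e-06 and 2.54e-05) and ACSL3 -0.10 and -0.18 (adjusted p = 0.257 and 0.0424). ACSL6 had 3 reads in all.

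Of 17 genes of mitochondrial fatty acid oxidation, 0 were DEGs with either species by edgeR or by DESeq2, and the medians were -0.13 and 0.00. An unadjusted p of at most 0.05 (edgeR) was found for 9 and 7 of them, beside 8965 and 7769 of all 17198 tested genes. Of 12 peroxisomal genes, CAT fell with both species and CRAT fell with *E. coli* BEVs, and the medians were -0.50 and -0.41. CAT, the peroxide-splitting catalase, fell from 479 ± 2.56 CPM to between 159 and 217 CPM (log2 fold changes -1.58 and -1.21, adjusted p = 5.71e-13 and 2.77e-11 from edgeR). CRAT, a carnitine acetyltransferase, had -1.09 and -0.77 (adjusted p = 2.97e-08 and 3.05e-06).

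Among 11 genes of pyruvate dehydrogenase and its regulation, 2 fell with *E. coli* BEVs and 0 were DEGs with *S. aureus* BEVs (edgeR, and 0 with DESeq2). With *S. aureus* BEVs 6 of the 11 had an unadjusted p of at most 0.05 (edgeR), beside 7769 of all 17198 tested genes. Both genes that fell were PDK4 paralogs that also inhibit the enzyme. PDK3 was at 24.4 ± 3.32 CPM in NC, while EUC had 9.16 ± 0.436, EPL 11.5 ± 2.75, SUC 12.9 ± 1.86 and SPL 12.0 ± 0.389 CPM. Its log2 fold changes were -1.25 and -0.97 (adjusted p = 4.14e-07 and 1.03e-05 from edgeR). In SPL alone it was a DEG at -1.02 (adjusted p = 5.25e-05), and in SUC it was at -0.93 (adjusted p = 0.000152). PDK2 had -1.10 and -0.75 (adjusted p = 2.67e-06 and 0.000199), and PDK1 had 0.16 and -0.02 (adjusted p = 0.308 and 0.925). PDK4 had its highest mean in SPL, a description because it was picked on these libraries, whereas PDK2 and PDK3 were highest in NC. The means of PDK1 lay between 9.49 and 10.9 CPM.

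Of 24 other genes known as PPAR targets, 3 rose and 5 fell with *E. coli* BEVs, and 2 rose and 4 fell with *S. aureus* BEVs, with medians of -0.34 and -0.26. CAT and VLDLR, which fell, are in this list too. CYP27A1, a sterol hydroxylase, rose from 2.22 CPM to between 9.45 and 13.8 CPM (log2 fold changes 2.50 and 2.28, adjusted p = 5.15e-09 and 2.62e-08 from edgeR). ABCA1, the cholesterol exporter, rose with *E. coli* BEVs (1.78, adjusted p = 9.82e-07), from 29.8 ± 3.0 CPM in NC, with EUC at 95.9 ± 27.7 and EPL at 109 ± 19.7 CPM. With *S. aureus* BEVs, SUC was at 50.9 ± 15.2 and SPL at 39.7 ± 2.91 CPM (0.59, adjusted p = 0.0208). In SPL against SUC, 0 of these 24 genes had all SPL libraries above all SUC libraries, beside 6.86% of all tested genes, and 2 had them below.

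Of 14 hypoxia-inducible genes, 6 rose and 2 fell with *E. coli* BEVs and 2 rose and 1 fell with *S. aureus* BEVs, with medians of 0.37 and 0.20. ADM, a vasodilator peptide, had log2 fold changes of 3.05 and 2.73 (adjusted p = 5.95e-07 and 3.79e-06 from edgeR), and VEGFA, a growth factor of blood vessels, 1.69 and 1.56 (adjusted p = 7.55e-12 and 2.94e-11). MXI1, an antagonist of MYC, had -1.23 and -1.15, and NDRG1, a stress-response gene, -1.04 and -0.72, the last under the fold threshold. Of 14 glucocorticoid- and FOXO-inducible genes, 4 rose and 2 fell with *E. coli* BEVs and 3 rose and 1 fell with *S. aureus* BEVs, with medians of -0.01 and -0.06. BCL6, a transcriptional repressor, had 3.86 and 3.68 (adjusted p = 4.48e-14 and 1.1e-13 from edgeR), FKBP5, a co-chaperone of the glucocorticoid receptor, had 1.54 and 1.37, and SESN3, a sestrin of the stress response, had -1.96 and -1.80. In SPL against SUC, 4 of the 14 hypoxia genes had all SPL libraries above all SUC libraries, beside 6.86% of all tested genes. Of the 14 glucocorticoid and FOXO genes 0 did, and 0 of either list had them below. Of the hypoxia genes 0 were DEGs in this contrast with edgeR or DESeq2, and the median log2 difference was 0.05. An unadjusted p of at most 0.05 (edgeR) was found for 2 of them, beside 1000 of all tested genes. In the lists of lipid droplet, uptake, mitochondrial and peroxisomal genes, 2, 1, 1 and 1 lay above and 1, 3, 2 and 2 below. The part of hypoxia, glucocorticoid and FOXO signals in the levels of PLIN2 and PDK4 was not tested.

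**Figure D4:**
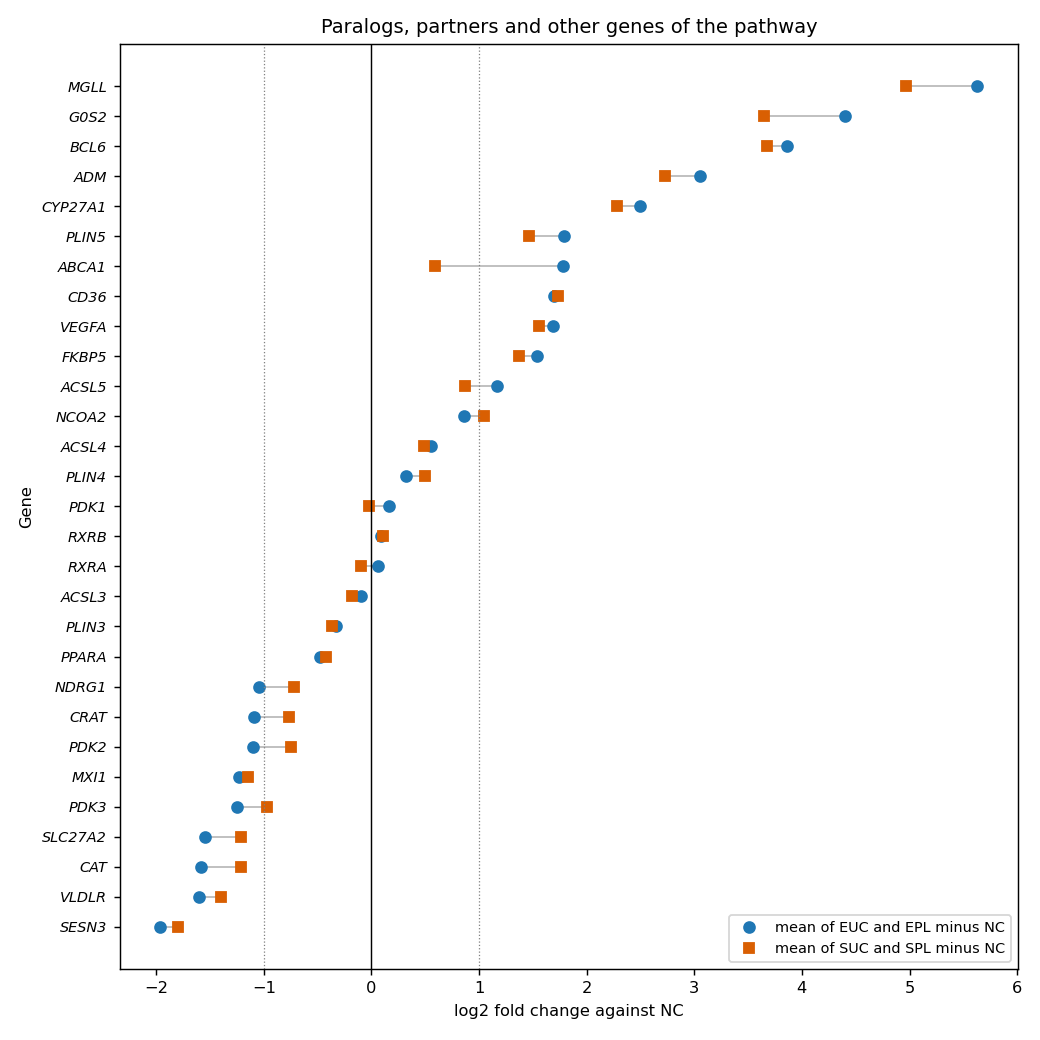
Log2 fold change against NC (horizontal axis) of paralogs, partners and named genes from the lists (vertical axis, sorted), over the mean of both *E. coli* groups (circles) and of both *S. aureus* groups (squares). Dotted lines mark 2-fold. MGLL stood highest at 5.63 and 4.97 and SESN3 lowest at -1.96 and -1.80.

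The genes most like PLIN2 and PDK4 were sought by Pearson's r of log2 CPM over the 15 libraries, among 14519 tested genes with a mean of at least 1 CPM. The libraries share their groups, so r is a description of the pattern, and it includes the *S. aureus* libraries that picked both genes. For PLIN2 these were SLC25A20 (r = 0.937), KLF10 (0.929), TBC1D13 (0.853), CHI3L1 (0.849) and LCP1 (0.841). SLC25A20, the carrier that brings acylcarnitines into mitochondria after CPT1A, is among the lists of mitochondrial oxidation and PPAR targets. It was at 18.7, 17.6 and 20.8 CPM in NC, 19.7, 21.8 and 21.4 CPM in EUC and 24.0, 20.1 and 22.7 CPM in EPL. It was at 23.7, 20.6 and 28.5 CPM in SUC and 32.3, 34.1 and 28.4 CPM in SPL, where SUC and SPL overlapped. KLF10, a zinc finger factor also in the list of PPAR targets, was at 50.2 ± 1.01 CPM in NC, and SUC had 66.7 ± 3.55 and SPL 74.2 ± 4.46 CPM.

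For PDK4 the genes were CDH24 (r = 0.872), KLF11 (0.871), PHACTR1 (0.849), NFAM1 (0.822) and WIPF3 (0.820). KLF11, a relative of KLF10, was at 33.6 ± 2.35 CPM in NC, while EUC had 30.6 ± 2.92, EPL 32.3 ± 0.843, SUC 34.5 ± 1.88 and SPL 38.8 ± 1.32 CPM. The likeness is one of shape and not of size, as these genes moved far less than PLIN2 and PDK4.

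**Figure D5:**
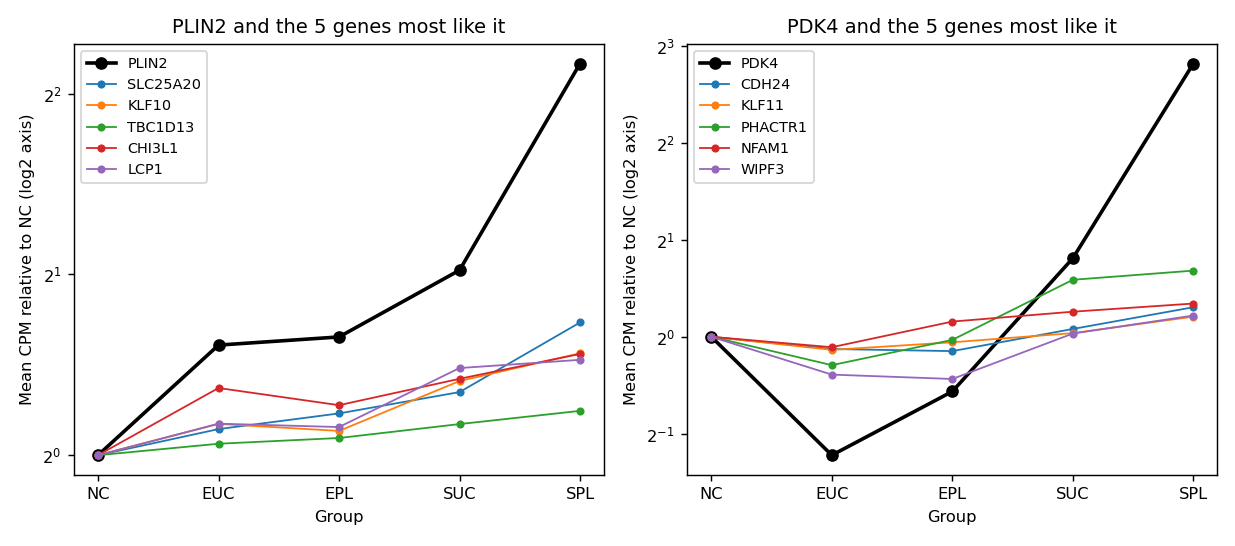
Mean CPM of each group relative to NC (vertical axis, log2 scale) for PLIN2 and PDK4 (black) and the 5 genes with the highest Pearson's r to each (colours), by group (horizontal axis). PLIN2 and PDK4 reach their maximum in SPL, and so do the 10 genes most like them, over a narrower range.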

How the data were processed

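The authors extracted RNA with Trizol, prepared libraries with an NEB kit, sequenced paired ends, checked reads with FastQC (0.11.5) and aligned them to hg38 with HISAT2 (2.1.0). StringTie (1.3.3b), DESeq (1.28.0) and featureCounts are also named in the submitters' processing notes. The deposited table holds whole-number read counts for 60286 Ensembl genes, without normalization. How strand was set and which annotation was counted is not given in the sources used here.

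Groups follow the sample titles. Counts were analysed with edgeR 4.0.16 in R 4.3.3 (filterByExpr, TMM, glmQLFit and glmQLFTest on all 15 libraries, no replicate block), with Benjamini-Hochberg adjustment over 17198 tested genes. Thresholds were those of the study, which used DESeq2 (here 1.42.0, as an alternative). Standard errors were derived from the F statistic. The scripts were tested on simulated data. Gene positions and exon lengths are from GENCODE 44, and promoters from RefSeq for 8 of the 9 genes.

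The members and lists were chosen with earlier results of these data known. Named genes were the members, the PLIN, PDK, PPAR, RXR and ACSL relatives, up to 2 called rises and 2 called falls per list and species with at least 1 CPM and no overlap with NC, and the 5 genes most like PLIN2 and PDK4. Other DEGs of the lists are counted only, and some genes of the lists are not reported here. Confidence intervals are at 95%.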

Additional observations from a re-analysis of the deposited data

Results flagged for a closer look

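CPT1A is the member not picked on the *S. aureus* libraries whose response to BEVs differed between the species by a test of the difference itself. The log2 difference between the *E. coli* and *S. aureus* groups was -0.61 (edgeR, adjusted p = 5.58e-05), lower in 6 of 6 *E. coli* libraries, and lay between -0.659 and -0.56 over 21 alternative settings. The *S. aureus* mean of CPT1A joins SUC (115 CPM) and SPL (152 CPM), which did not overlap, beside 159 CPM in NC. CPT1A, like the other members, was chosen with earlier results of these data known. The doses were 1 and 10 μg/mL, so species and dose cannot be told apart.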

How the results depend on the processing

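Without a fold threshold the numbers of genes called against NC were 5251 in EUC, 5026 in EPL, 3697 in SUC, 4114 in SPL, 5994 over the *E. coli* groups and 4711 over the *S. aureus* groups, in place of 2610, 2498, 1700, 1972, 2701 and 1979, and 665 in place of 118 between the species. The members called were then 5 in EUC, 5 in EPL, 4 in SUC, 5 over the *E. coli* groups, 5 over the *S. aureus* groups and 3 between the species, since fewer conditions had to be met. PLIN2 and PDK4 are 2 of the members over the *S. aureus* groups and 2 of those between the species, and were picked on those libraries. In SPL against SUC, 2 genes were called in place of 1, both of them members (PLIN2 and PDK4), with DESeq2, without a low-count filter and with only the groups compared. Both were picked on this contrast, so these counts are descriptions and say nothing of stability.

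With each library left out in turn, the genes called numbered 2431 to 2652 in EUC, 2291 to 2575 in EPL, 1548 to 1762 in SUC, 1809 to 2040 in SPL, 2502 to 2768 over the *E. coli* groups, 1793 to 2044 over the *S. aureus* groups, 0 to 0 in EPL against EUC, 1 to 2 in SPL against SUC and 94 to 129 between the species. The members called were 3 to 4 in EUC, 2 to 2 in EPL, 1 to 2 in SUC, 5 to 5 in SPL, 2 to 3 and 3 to 4 over the *E. coli* and *S. aureus* groups, 0 to 0 in EPL against EUC, 1 to 2 in SPL against SUC and 1 to 2 between the species. In SPL against SUC, PDK4 was called without EUC replicate 1 or 3. Over the *E. coli* groups PDK4 was called without EUC replicate 1 and PPARG without EUC replicate 3, and over the *S. aureus* groups PPARD was called without NC replicate 1, SUC replicate 3 or SPL replicate 3.

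The replicate numbers of the titles gave no sign of pairing on average. In deviations from the group means, same-numbered libraries of different groups had a mean correlation of 0.00949 (range -0.452 to 0.525). Libraries with unlike numbers had -0.00357 (range -0.484 to 0.488). Some single pairs across groups were alike, among them EUC replicate 3 with SUC replicate 3 (0.525) and with EPL replicate 1 (0.488). Whether such libraries were handled together was not tested. With the replicate block, 2553 genes were called in EUC and 3 members, and the number of members called was the same in all 9 comparisons. Of 1164 refitted member fold changes with a test, at the same fold threshold, 1152 were called or not called as before, 10 gained a call and 2 lost it. Among these, direction was compared only where a call was made, so uncalled values may have changed sign. The 335 without a test (SPL against SUC, and PLIN2 and PDK4 wherever the *S. aureus* libraries enter) are not in this tally. Among them PLIN2 in SUC fell under the fold threshold without NC replicate 1 or SUC replicate 3, and between the species it came past it without EUC replicate 3, SUC replicate 2 or SPL replicate 3. No called value of either kind changed its direction. Depth limits PDK4, ANGPTL4 and FABP4 most.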
